A study of Mus musculus with 12 samples.

Results

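The genes described here are Srebf1, Mlxipl, Pklr, Acly, Acaca, Acacb, Fasn, Scd1, Thrsp and Mid1ip1, which encode the enzymes of de novo lipogenesis in liver and proteins that regulate them. They were chosen by name, with earlier results of these data known. For them, every probe set that the array's annotation assigns to 1 of these genes and to no other was taken. They are 10 of the 18193 genes measured by a probe set that reads no other gene, and they hold 22 of the 45101 probe sets on the array. A probe set is a group of short oligonucleotides that reads 1 transcript, and its value is a log2 signal. A filter asked for a log2 signal above 5 on at least 3 of the 12 arrays. It was passed by 18 of the 22 probe sets and by all 10 genes, each of which is represented by its brightest probe set. The other 4, of which 3 belong to Acly and 1 to Acacb, stayed at or near the lowest value of the arrays.

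Liver RNA came from 12 male mice aged 9 weeks, in 4 groups of 3, with 1 array per mouse. The conditional Keap1 knockout (CKO) carried Albumin-Cre with 1 floxed and 1 null Keap1 allele on a C57Bl/6J background, and the genetic control, called WT here, carried Alb-Cre with 1 floxed and 1 intact allele. Cre under the albumin promoter acts in hepatocytes, so the control livers have Cre and may have lost their floxed copy there, and the null allele of the CKO is present in every cell. Mice of each genotype received a single gavage of vehicle (10% DMSO, 10% Cremophor-EL, 80% PBS) or of 30 umol/kg CDDO-Im in that vehicle, and livers were taken 6 h later. CDDO-Im is a synthetic oleanane triterpenoid that activates Nrf2, the transcription factor that Keap1 marks for degradation. The study set genetic activation of Nrf2 beside activation by the compound. The sources used here give neither the feeding state of the mice, the time of day nor the dates of the array scans.

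De novo lipogenesis turns surplus carbohydrate into fatty acids. Pyruvate from glycolysis enters mitochondria, leaves them as citrate, is split into acetyl-CoA in the cytosol, is carboxylated to malonyl-CoA and is built into palmitate, which is then desaturated. In liver the genes of this route are switched on after a carbohydrate meal by SREBP-1c, made from Srebf1 and driven by insulin, and by ChREBP, made from Mlxipl and driven by sugar metabolites.

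Array medians lay between 2.32 and 2.34, 8338 genes passed the filter and were tested, and the lowest correlation between replicates was 0.996. The Keap1 probe set 1450746_at read 7.92 to 8.89 on the 6 WT arrays and 2.74 to 3.31 on the 6 CKO arrays. The brighter Keap1 probe set, 1450747_at, stands for the gene in the test and separated the genotypes less, at 6.58 to 7.48 in WT vehicle, 7.76 to 8.08 in WT CDDO-Im, 6.15 to 6.51 in CKO vehicle and 6.28 to 6.45 in CKO CDDO-Im livers. By it Keap1 was lower in CKO livers under CDDO-Im (log2 change -1.57 ± 0.20 SE, limma adjusted p = 0.00553), but under vehicle the difference of -0.68 ± 0.20 did not pass (adjusted p = 0.0712). Where either probe set lies relative to the floxed exons is not stated in the sources used here. Nqo1, a quinone reductase and standard Nrf2 target, read 5.18 to 6.96 in WT vehicle livers, and in the other groups 9.56 to 9.86 (WT CDDO-Im), 11.04 to 11.16 (CKO vehicle) and 10.74 to 11.05 (CKO CDDO-Im). Srxn1, the sulfiredoxin gene and another Nrf2 target, rose by 3.07 ± 0.25 (adjusted p = 4.77e-04) with CDDO-Im in WT livers and by 2.25 ± 0.25 (adjusted p = 0.00100) with Keap1 deletion. All 7 hepatocyte markers tested were without a call in every comparison. Their summed log2 signal stayed between 18.41 and 18.53 on all arrays. Adipose tissue also makes these enzymes. Of the 4 adipose markers measured, Adipoq, Retn and Lep sat at the lowest value on all 12 arrays and Fabp4 was not called in any comparison. The summed adipose signal was 6.87 to 7.09, 6.69 to 7.25, 7.10 to 7.65 and 7.25 to 7.38 in these 4 groups. Among markers of other liver cells, Lyve1 of sinusoidal endothelium rose by 2.57 ± 0.46 (limma adjusted p = 0.0150) with CDDO-Im in WT livers and by 2.24 ± 0.46 (adjusted p = 0.0176) with Keap1 deletion. Of the 3 endothelial markers tested, 2 went the other way in both comparisons. These were Stab2 and Kdr, which had lower means and were not called. The medians of the 3 were -0.53 and -0.18. Marco, a macrophage receptor, rose by 2.30 ± 0.46 with Keap1 deletion (adjusted p = 0.0151). In the same order of groups, the summed signal of the 5 macrophage markers ran from 12.47 to 13.32, 12.93 to 13.11, 12.82 to 13.35 and 12.85 to 13.45, and that of the 4 endothelial markers from 10.21 to 10.49, 10.01 to 10.44, 10.29 to 10.49 and 10.57 to 11.12. Their part in the results below was not tested. In whole liver RNA, fewer cells of a type and less RNA per cell cannot be told apart.

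The promoters of Fasn, Acly, Pklr and Mid1ip1 are shown because the first 3 are the lipogenesis genes called lower after both CDDO-Im and Keap1 deletion, and Mid1ip1 is the gene called different between CKO vehicle and WT CDDO-Im livers. The sequences are RefSeq's, on GRCm38.p6, from 250 bases before to 50 bases after the annotated transcription start, printed 5′ to 3′ on the strand of the gene. Fasn lies at chr11:120824498-120824797 (minus strand), Acly at chr11:100527951-100528250 (minus), Pklr at chr3:89136373-89136672 (plus) and Mid1ip1 at chrX:10717115-10717414 (plus). Capitals mark matches, on either strand, to the letters CCAAT (the NF-Y box), GGGCGG (the GC box) and, in Pklr, the paired E-box described after them.
Fasn: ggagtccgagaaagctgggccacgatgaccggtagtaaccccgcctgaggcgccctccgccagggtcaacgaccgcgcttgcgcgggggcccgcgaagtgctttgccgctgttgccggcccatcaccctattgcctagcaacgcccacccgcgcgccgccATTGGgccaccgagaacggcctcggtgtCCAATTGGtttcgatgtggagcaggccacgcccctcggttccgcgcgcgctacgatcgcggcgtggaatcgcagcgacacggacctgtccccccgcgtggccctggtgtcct
Acly: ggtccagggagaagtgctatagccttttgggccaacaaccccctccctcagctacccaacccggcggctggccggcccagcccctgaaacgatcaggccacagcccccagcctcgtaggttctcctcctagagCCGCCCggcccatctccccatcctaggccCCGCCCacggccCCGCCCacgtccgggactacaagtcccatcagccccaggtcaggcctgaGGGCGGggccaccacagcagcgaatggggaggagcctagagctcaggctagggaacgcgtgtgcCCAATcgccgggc
Pklr: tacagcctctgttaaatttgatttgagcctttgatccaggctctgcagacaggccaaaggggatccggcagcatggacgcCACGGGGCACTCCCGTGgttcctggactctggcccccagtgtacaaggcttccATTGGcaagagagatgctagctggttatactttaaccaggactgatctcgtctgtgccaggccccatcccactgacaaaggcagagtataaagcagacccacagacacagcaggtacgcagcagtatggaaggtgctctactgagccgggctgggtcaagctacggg
Mid1ip1: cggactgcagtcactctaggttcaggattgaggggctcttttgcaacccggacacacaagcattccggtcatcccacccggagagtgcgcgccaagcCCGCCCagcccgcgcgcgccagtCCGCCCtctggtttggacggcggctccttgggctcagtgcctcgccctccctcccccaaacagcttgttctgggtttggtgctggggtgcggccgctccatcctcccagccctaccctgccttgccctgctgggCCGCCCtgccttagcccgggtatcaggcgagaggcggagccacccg

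Of the 10 genes, 9 have promoter windows in the RefSeq table, 13 in all, and Scd1 is named only. The NF-Y box CCAAT, to which the trimer NF-Y binds beside SREBP in many lipogenic promoters, occurred in 8 of the 13 windows (61.5%) and in 7 of the 9 genes, against 37.4% of all 32851 windows of that length. Fasn held 3 matches, from -90 to -86, -62 to -58 and -59 to -55 counted from the start at 0, and the last 2 overlap. The GC box GGGCGG was in 5 windows (38.5%, against 35.7%). Acly held 4 matches and Mid1ip1 3. The E-box CACGTG was in 1 window, of Mlxipl (7.69%, against 7.15%). Neither the sterol response element in full nor its core CACCCCAC was in any of the 13 windows (0), and they were in 0.0913% and 2.87% of all windows. The liver promoter of Pklr held the spaced pair CACGGGNNNNNCCCGTG from -170 to -154, which is the carbohydrate response element known from this gene. That pair was looked for because it is known there, after the sequence was seen, and it was in 1 of the 32851 windows. These are matches of letters in short windows and not measured binding sites.

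The first comparison asked what CDDO-Im did in WT livers. Within 6 h of CDDO-Im, 6 of the 10 lipogenesis genes had fallen in WT livers and none had risen (0), in the limma test across all genes at a Benjamini-Hochberg adjusted p under 0.05. Of all 8338 genes, 1.76% fell and 1.88% rose in this comparison. Since the 10 were chosen with earlier results known, such shares, here and below, describe them and are no test of the set. The 6 were the fatty acid synthase Fasn, the activator of acetyl-CoA carboxylase Mid1ip1, both transcription factor genes Srebf1 and Mlxipl, the pyruvate kinase Pklr and the ATP citrate lyase Acly. All 10 estimates were below 0, from -2.51 to -0.03, with a median log2 change of -1.68 against -0.02 over all genes tested. The 3 WT CDDO-Im livers lay below all 3 WT vehicle livers for 8 of the 10 genes, as they did for 13.1% of all genes. The desaturase Scd1 and Thrsp were the exceptions.

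Srebf1 makes SREBP-1, the insulin-driven activator of this route. It read 13.80, 13.72 and 13.72 in WT vehicle livers (replicates 1, 2 and 3) and 12.62, 11.62 and 11.10 in WT CDDO-Im livers (replicates 2, 3 and 4). The control values had an SD of only 0.05, and all 3 treated livers were lower by more than 1 log2 unit. Srebf1 fell 3.92-fold, with a log2 change of -1.97 ± 0.40 (SE) and a limma adjusted p of 0.0259. Its probe set does not separate SREBP-1a from SREBP-1c as far as the annotation used here says.

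Mlxipl makes ChREBP, the sugar-sensing factor. Its signals were 12.64, 12.67 and 12.71 in WT vehicle and 12.30, 12.07 and 11.97 in WT CDDO-Im livers. The groups did not overlap, but the step was small. Mlxipl fell 1.47-fold (log2 change -0.56 ± 0.11, limma adjusted p = 0.0248). The calls of Srebf1 and Mlxipl are the least secure of the 6: each was lost without any 1 of the 3 WT vehicle livers, and without WT CDDO-Im replicate 3 or 4, with adjusted p-values up to 0.0957 and 0.0964. Both were also lost with no filter on low values (0.118 and 0.0767) and with only the 2 groups compared in the fit (0.0899 and 0.0865).

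Pklr encodes the liver pyruvate kinase, which makes pyruvate in the last step of glycolysis and is a classic ChREBP target. Signals were 11.84, 12.05 and 11.91 in WT vehicle and 10.36, 10.15 and 9.52 in WT CDDO-Im livers. The lowest control lay more than 1 log2 unit above the highest treated liver. Pklr fell 3.79-fold (-1.92 ± 0.22, limma adjusted p = 0.00161), which is the smallest adjusted p among the 10 genes in this comparison.

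Acly cleaves citrate to give cytosolic acetyl-CoA. It read 13.67, 13.48 and 13.17 in WT vehicle and 12.09, 11.41 and 11.19 in WT CDDO-Im livers, again without overlap. Acly fell 3.67-fold (-1.88 ± 0.30, limma adjusted p = 0.00924).

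Acaca and Acacb encode the acetyl-CoA carboxylases. The cytosolic form made by Acaca supplies malonyl-CoA for synthesis, and the form made by Acacb sits at mitochondria, where malonyl-CoA restrains fatty acid import. Acaca read 10.70, 10.39 and 10.37 in WT vehicle and 9.65, 8.97 and 8.78 in WT CDDO-Im livers. The groups did not overlap, and the log2 change was -1.36 ± 0.33 with a limma adjusted p of 0.0520, just past the threshold. With every probe set tested on its own, both Acaca probe sets were called, 1434185_at at an adjusted p of 0.0488 and 1427595_at, which changed by -2.13 ± 0.44, at 0.0260. Acacb was dim, at 6.82, 5.38 and 5.90 in WT vehicle and 5.20, 4.24 and 5.20 in WT CDDO-Im livers. Its groups did not overlap, but the nearest values were 5.38 and 5.20, and the change of -1.15 ± 0.37 did not pass the test (adjusted p = 0.119).

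Fasn builds palmitate from malonyl-CoA. It read 14.43, 14.18 and 14.37 in WT vehicle and 12.47, 11.57 and 11.41 in WT CDDO-Im livers. The groups were further apart than for any of the other 9 genes. Fasn fell 5.69-fold (-2.51 ± 0.34, limma adjusted p = 0.00400), to 17.6% of the control, and its log2 change ranked 5 among the falls of all 8338 genes.

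Scd1 puts the double bond into palmitate and stearate. Its signals were 14.77, 14.93 and 14.26 in WT vehicle and 14.41, 14.63 and 14.82 in WT CDDO-Im livers. These values interleave. The change was -0.03 ± 0.21, with a 95% interval from -0.49 to 0.43, and the adjusted p was 0.963. That interval does not reach the changes of the 6 called genes, but whether Scd1 differs from them was not tested.

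Thrsp and Mid1ip1 encode the related proteins Spot 14 and Mig12, which act on acetyl-CoA carboxylase. Thrsp read 15.57, 15.08 and 14.44 in WT vehicle and 14.76, 12.29 and 13.62 in WT CDDO-Im livers. Its SD was 0.57 among the controls and 1.24 among the treated livers, the groups overlapped, and the change of -1.47 ± 0.55 did not pass (adjusted p = 0.172). Mid1ip1 read 12.86, 13.30 and 13.31 in WT vehicle and 11.66, 11.17 and 10.24 in WT CDDO-Im livers. Its groups were clear of each other, and it fell 4.39-fold (-2.13 ± 0.33, limma adjusted p = 0.00787).

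**Figure D1:**
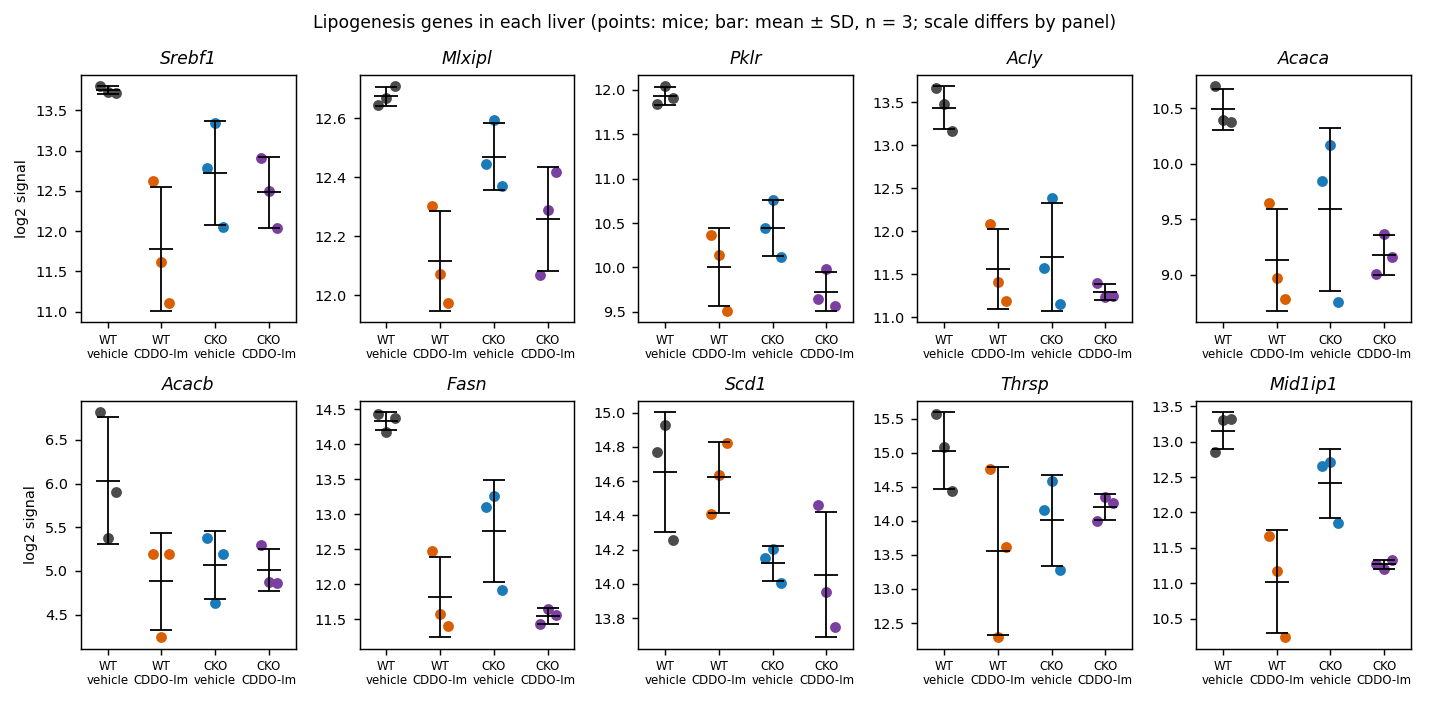
Log2 signal of each of the 10 lipogenesis genes (brightest probe set) in the 12 livers, 1 panel per gene with its own vertical scale. Points are mice, long bars the mean and short bars 1 SD (n = 3 per group). WT vehicle livers sit above all 3 WT CDDO-Im livers in every panel except Scd1 and Thrsp, and the 3 CKO CDDO-Im livers of Fasn, Acly and Mid1ip1 lie close together (SD 0.11, 0.09 and 0.06).

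The comparison of CKO with WT livers under vehicle asked what genetic loss of Keap1 did. It lowered Acly, Pklr and Fasn, 3 of the 10 genes, and raised 0. Of all 8338 genes, 3.26% fell and 3.25% rose. All 10 estimates were again below 0, with a median of -0.99 against -0.01 over all genes. The CKO vehicle livers lay below all WT vehicle livers for 9 of the 10 genes, against 13.3% of all genes, and Thrsp was the exception. This comparison and the previous one share the 3 WT vehicle livers, so their values stand side by side without a test of likeness.

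Acly read 11.57, 12.38 and 11.15 in CKO vehicle livers (replicates 3, 4 and 5), where all 3 were under the lowest WT vehicle value of 13.17. It fell 3.34-fold (-1.74 ± 0.30, limma adjusted p = 0.00890). Pklr read 10.45, 10.76 and 10.12, all more than 1 log2 unit under the WT vehicle livers. Pklr fell 2.81-fold (-1.49 ± 0.22, limma adjusted p = 0.00374). Fasn read 13.10, 13.26 and 11.92, of which replicate 5 was the lowest. Fasn fell 2.96-fold (-1.56 ± 0.34, limma adjusted p = 0.0246). The Fasn call was lost without any 1 of the 3 WT vehicle livers, with adjusted p-values of 0.0777, 0.053 and 0.0601 without replicates 1, 2 and 3. With no filter on low values, or with only the 2 groups compared in the fit, Pklr alone of the 3 was still called. Acly then had limma adjusted p-values of 0.0504 and 0.0568 and Fasn 0.106 and 0.0935. With the replicate number as a block in the fit, none of the 3 was called. The limma adjusted p-values were then 0.146 for Pklr, 0.163 for Acly and 0.280 for Fasn.

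Of the transcription factor genes, Srebf1 read 12.78, 13.34 and 12.05 in CKO vehicle livers, all below the controls. The change was -1.02 ± 0.40 and did not pass (limma adjusted p = 0.158). Mlxipl, at 12.45, 12.60 and 12.37, also lay just below the controls, with a change of -0.20 ± 0.11 (adjusted p = 0.319). The carboxylase Acaca read 9.84, 10.17 and 8.76 and changed by -0.90 ± 0.33 (adjusted p = 0.137). Acacb, at 5.38, 4.63 and 5.20, came within rounding of the lowest control value and changed by -0.96 ± 0.37 (adjusted p = 0.156). Scd1 read 14.15, 14.20 and 14.00, each just under the lowest WT vehicle value of 14.26. Its change was -0.53 ± 0.21 (adjusted p = 0.158). Mid1ip1 read 12.66, 12.72 and 11.85 against a lowest control of 12.86 and changed by -0.75 ± 0.33 (adjusted p = 0.217). Thrsp read 14.16, 14.59 and 13.28, which overlapped the controls, and changed by -1.02 ± 0.55 (adjusted p = 0.313). Of the 10 genes, 8 had an unadjusted p under 0.05, as did 1853 of all 8338 genes tested.

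**Figure D2:**
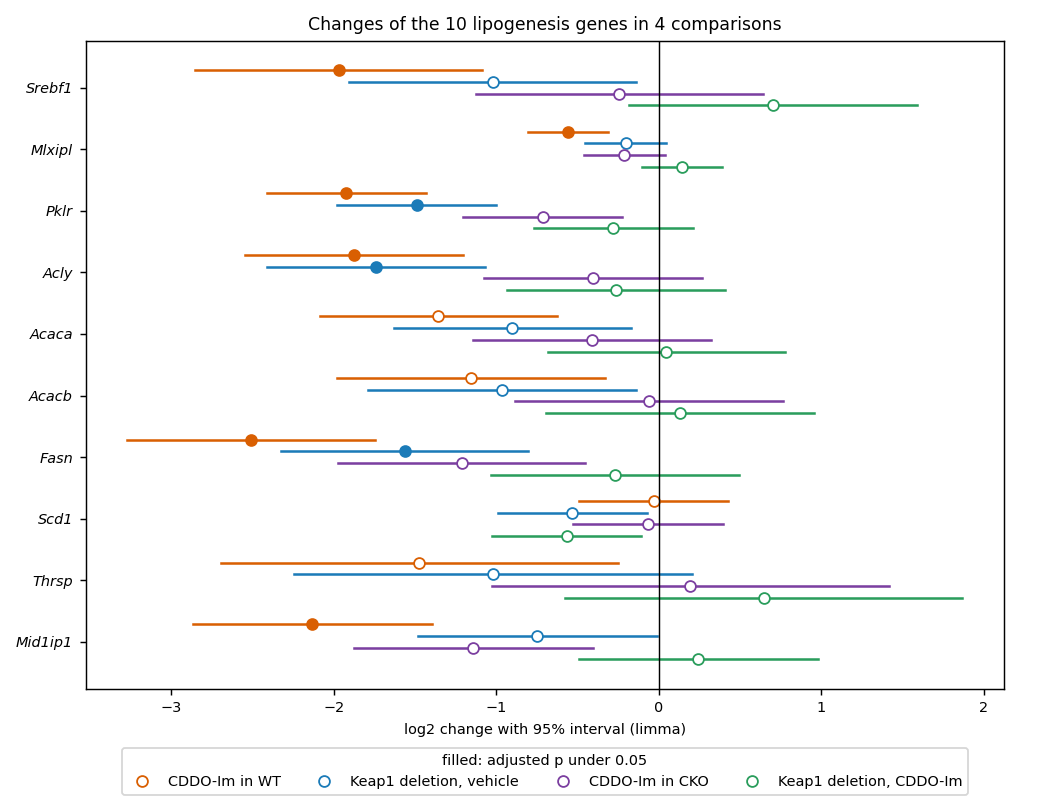
Log2 change of each of the 10 genes with its 95% interval (limma) in 4 comparisons: CDDO-Im in WT livers, Keap1 deletion under vehicle, CDDO-Im in CKO livers and Keap1 deletion under CDDO-Im. Filled points passed an adjusted p under 0.05, which 6 genes did in the first comparison, 3 in the second and 0 in the other 2.

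The compound was also given to mice without hepatocyte Keap1. In these CKO livers CDDO-Im changed 0 of the 10 genes, and 0% of all genes fell or rose by limma (790 of 8338 had an unadjusted p under 0.05, as did 3 of the 10). The lipogenesis genes with the largest estimates were again Fasn, Mid1ip1 and Pklr. For these 3 the CKO CDDO-Im livers lay below all CKO vehicle livers, as for 9.4% of all genes. The median change of the 10 was -0.32 against -0.02 over all genes.

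Fasn read 11.43, 11.66 and 11.56 in CKO CDDO-Im livers (replicates 2, 3 and 4), below 13.10, 13.26 and 11.92 without the compound. The estimate was 2.32-fold lower (-1.21 ± 0.34, interval -1.97 to -0.45), with a limma adjusted p of 0.392. Mid1ip1 read 11.28, 11.20 and 11.32 against 12.66, 12.72 and 11.85. Its estimate was 2.21-fold lower (-1.14 ± 0.33, interval -1.88 to -0.40, adjusted p = 0.410). Pklr read 9.64, 9.98 and 9.57 against 10.45, 10.76 and 10.12, with an estimate 1.64-fold lower (-0.71 ± 0.22, adjusted p = 0.420). In all 3 genes the nearest CKO vehicle liver was replicate 5.

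The other 7 genes overlapped between these groups. Srebf1 read 12.91, 12.50 and 12.03 in CKO CDDO-Im livers and changed by -0.24 ± 0.40 (limma adjusted p = 0.886). Acly, at 11.40, 11.24 and 11.25, changed by -0.40 ± 0.30 (adjusted p = 0.712). Acaca, at 9.01, 9.37 and 9.16, changed by -0.41 ± 0.33 (adjusted p = 0.732). Scd1 (14.46, 13.95 and 13.75) and Mlxipl (12.07, 12.29 and 12.42) gave -0.07 ± 0.21 and -0.21 ± 0.11. Acacb (5.29, 4.87 and 4.86) gave -0.06 ± 0.37, and Thrsp (14.00, 14.35 and 14.26) was the only estimate above 0, at 0.19 ± 0.55.

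The interaction asks whether the CDDO-Im change in CKO livers differs from that in WT livers. It was positive for 9 of the 10 genes and called for 0 of them. The median of the 10 was 1.15 against 0.005 over all genes. Positive values mean a smaller fall in CKO livers, except for Thrsp, whose estimate in CKO livers was a rise of 0.19. Of all genes, 0.024% had a called positive and 0.252% a called negative interaction. The smallest p among the 10 was that of Pklr, at 1.21 ± 0.31 with an interval from 0.52 to 1.90 and a limma adjusted p of 0.202 (unadjusted p = 0.00288). Acly gave 1.47 ± 0.43 (adjusted p = 0.249) and Srebf1 1.73 ± 0.56 (adjusted p = 0.334), the largest estimate. Fasn gave 1.30 ± 0.49 (adjusted p = 0.406), Thrsp 1.67 ± 0.78 (adjusted p = 0.503) and Scd1 -0.03 ± 0.29 (adjusted p = 0.983). No single gene's interaction passed the test, and 4 of the 10 had an unadjusted p under 0.05, as did 858 of all 8338 genes tested.

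Among livers given CDDO-Im, no lipogenesis gene was called between the genotypes. All 10 genes overlapped between WT CDDO-Im and CKO CDDO-Im livers. Over all genes, 12.2% had every CKO value below every WT value, and the share with every CKO value above was not counted. With only 10 genes, their overlap is therefore not read as a result about them. Called lower were 0 of the 10 genes against 0.792% of all genes, called higher 0 against 0.744%, and the median change was 0.09 against -0.01. Fasn differed by -0.27 ± 0.34 (interval -1.03 to 0.49), Acly by -0.27 ± 0.30 (-0.94 to 0.41) and Mid1ip1 by 0.24 ± 0.33. Pklr differed by -0.28 ± 0.22 (-0.77 to 0.21) and Acaca by 0.05 ± 0.33 (-0.68 to 0.78). These intervals leave room for differences of up to about 1 log2 unit. Srebf1 had the highest estimate, 0.70 ± 0.40 (-0.18 to 1.59, limma adjusted p = 0.409). Scd1 was the only 1 of the 10 with an unadjusted p under 0.05 (0.0204), at -0.57 ± 0.21 and an adjusted p of 0.207. Of all 8338 genes tested, 1398 had an unadjusted p under 0.05 in this comparison.

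CKO vehicle livers were compared directly with WT CDDO-Im livers, which sets lasting genetic activation against 6 h of the compound. Mid1ip1 was the 1 lipogenesis gene that differed, 2.61-fold higher in CKO vehicle livers (1.38 ± 0.33, interval 0.65 to 2.12, limma adjusted p = 0.0452). Higher calls made up 2.42% and lower calls, of which the 10 genes had 0, 1.87% of all genes. The CKO vehicle values of 12.66, 12.72 and 11.85 all lay above the WT CDDO-Im values of 11.66, 11.17 and 10.24, the closest being 11.85 and 11.66. This call was lost without any 1 of 10 of the 12 arrays, with adjusted p-values up to 0.143. Mlxipl also had every CKO vehicle value above every WT CDDO-Im value, as 15.4% of all genes did, at 0.35 ± 0.11 (adjusted p = 0.0977). Scd1 was the 1 gene with every CKO vehicle value below (12.5% of all genes), at -0.50 ± 0.21 (adjusted p = 0.184). Acly, at 0.14 ± 0.30, and Pklr, at 0.43 ± 0.22, had overlapping groups. Srebf1 (0.95 ± 0.40, adjusted p = 0.189) and Fasn (0.94 ± 0.34, adjusted p = 0.138) were higher in CKO vehicle livers by estimates that did not pass. Without CKO vehicle replicate 5, Fasn reached 1.36 with an adjusted p of 0.0292.

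The probe sets of 1 gene share its transcripts, so they are repeat readings and not replicates. Tested one by one, 12 of the 18 measured probe sets fell with CDDO-Im in WT livers, against 1.86% of all probe sets tested, and 7 fell with Keap1 deletion under vehicle, against 3.02%. The 7 were the 3 of Acly, the 3 of Pklr and that of Fasn. For Pklr the CDDO-Im changes were -1.92, -2.10 and -2.57, and for Acly -1.88, -1.93 and -2.20. In both genes the dimmest probe set gave the largest change with CDDO-Im. With Keap1 deletion the 3 Pklr changes were -1.49, -1.55 and -1.49, and those of Acly -1.74, -1.75 and -2.08. The 2 probe sets of Scd1 differed more. The second, 1415965_at, read 13.34, 13.49 and 12.04 in WT vehicle and 11.86, 12.30 and 11.19 in CKO vehicle livers. With CDDO-Im it read 12.32, 12.75 and 12.76 in WT and 12.50, 11.08 and 11.95 in CKO livers. It changed by -0.35 ± 0.45 with CDDO-Im and by -1.17 ± 0.45 with Keap1 deletion (limma adjusted p = 0.154), and neither passed. WT vehicle replicate 3 was low on both Scd1 probe sets. For Thrsp, 1422973_a_at followed the brightest probe set at -1.71 ± 0.64 and -1.19 ± 0.64, and the dim 1444166_at moved by -0.40 ± 0.18 and -0.15 ± 0.18. None of the Thrsp probe sets was called.

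**Figure D3:**
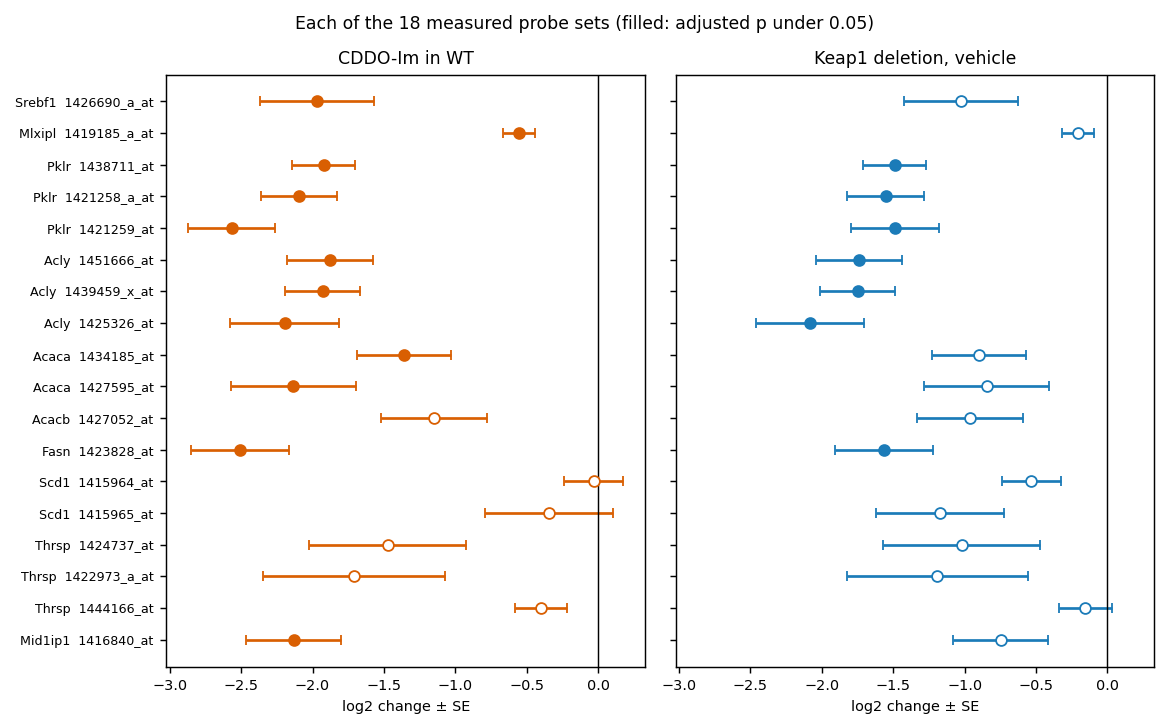
Log2 change ± SE (limma, every probe set tested) of the 18 measured probe sets, for CDDO-Im in WT livers (left) and Keap1 deletion under vehicle (right). Filled points passed an adjusted p under 0.05, 12 on the left and 7 on the right. The 3 probe sets of Acly and the 3 of Pklr are filled in both panels, and those of Scd1, Thrsp and Acacb in neither.

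The genes also varied together among mice of 1 group. Each array was set against the mean of the other 2 in its group. WT CDDO-Im replicate 2 was higher for 9 of the 10 genes and for 38.5% of all genes (median difference 0.78, against -0.05 over all genes). CKO vehicle replicate 4 was higher for 9 and for 49.7% of all genes (median 0.61, against 0 over all genes). CKO vehicle replicate 5 was lower for 9 (median -0.83, against 0.01 over all genes), and 52.5% of all genes were higher in it. The 3 CKO CDDO-Im livers had medians between -0.06 and 0.04, the narrowest range of any group. Single genes still varied among them. Their SD was larger than in any other group for Mlxipl (0.18) and Scd1 (0.37). The correlation of each gene with the mean of the other 9 over the 12 arrays was 0.97 for Fasn, 0.96 for Acly, 0.95 for Acaca, 0.94 for Pklr, 0.89 for Srebf1 and 0.87 for Mid1ip1. It was 0.82 for Mlxipl, 0.74 for Thrsp, 0.66 for Acacb and 0.25 for Scd1. With group means removed, Acaca and Fasn kept 0.93, Acly 0.91 and Srebf1 0.88, Thrsp had 0.73 and Pklr 0.72, and Acacb and Scd1 had -0.06 and -0.13. Over the 45 pairs of genes r ran from -0.10 to 0.97 with a median of 0.77. These correlations share the same 12 arrays and describe them only.

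Outside the 10 genes, the gene whose values over the 12 arrays were most like the mean of the 10 (each scaled to its own SD) was Elovl6, the elongase that extends palmitate to stearate, with r = 0.96. The next were Gpd2 (0.96), Pik3r1 (0.95), Pnpla3 (0.94), Aacs (0.93), Khk (0.93), Plin2 (0.92), Ppil1 (0.92), Zfp148 (0.91) and Fkbp14 (0.91). They were picked for likeness to a profile that is highest in WT vehicle livers, on the same 12 arrays. Falls with CDDO-Im in WT livers and with Keap1 deletion were therefore favoured by the choice. The values below describe these genes and are no separate support. Gpd2, the mitochondrial glycerol-3-phosphate dehydrogenase, fell with CDDO-Im in WT livers (-1.77 ± 0.24, limma adjusted p = 0.00399) and with Keap1 deletion (-0.99 ± 0.24, adjusted p = 0.0357). Plin2, a coat protein of lipid droplets, fell by -0.99 ± 0.14 (adjusted p = 0.00482) and -0.95 ± 0.14 (adjusted p = 0.00374). Aacs, which activates acetoacetate for lipid synthesis, fell with CDDO-Im (-1.98 ± 0.46, adjusted p = 0.0435) and changed by -1.59 ± 0.46 with Keap1 deletion (adjusted p = 0.0685).

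Genes that act beside or after the route were read as lists. Of 8 genes of substrate and NADPH supply, the only call with CDDO-Im in WT livers and with Keap1 deletion was a rise of Pgd, the phosphogluconate dehydrogenase that makes NADPH and is a known Nrf2 target. Pgd read 10.41, 10.23 and 10.06 in the 3 controls, 11.25, 11.24 and 11.23 after CDDO-Im, 11.50, 11.49 and 10.98 after Keap1 deletion and 11.09, 11.06 and 11.18 after both. All 9 livers with Keap1 deleted or CDDO-Im given were above the 3 controls, the reverse of Fasn. It rose by 1.01 ± 0.14 (limma adjusted p = 0.00399) and 1.09 ± 0.14 (adjusted p = 0.00150). With CDDO-Im in CKO livers it changed by -0.21 ± 0.14 (adjusted p = 0.656), and the interaction was called and negative, at -1.22 ± 0.19 (adjusted p = 0.0371). The list's medians were -0.08 and -0.21. The malic enzyme Me1, another NADPH producer, gave -0.46 ± 0.18 and -0.45 ± 0.18 and did not pass.

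Of 11 tested genes of elongation, desaturation and triglyceride assembly, 4 fell and 0 rose in each of these comparisons, with medians of -0.30 and -0.85. Over all genes 1.76% fell with CDDO-Im in WT livers and 3.26% with Keap1 deletion. Pnpla3 is among the 4 in both comparisons. It passed the filter through the WT vehicle livers alone, which favoured a fall from them, so its calls are no separate support. With CDDO-Im in WT livers the largest falls were those of Pnpla3, a lipid droplet protein driven by SREBP-1c (-3.59 ± 0.32, limma adjusted p = 4.77e-04), and Elovl6 (-2.28 ± 0.41, adjusted p = 0.0165). The WT CDDO-Im mean of Pnpla3, 2.42, is close to the lowest value of the arrays, so the size of its fall depends on that floor. With Keap1 deletion the largest were Elovl3, an elongase of very long chains (-3.17 ± 0.58, adjusted p = 0.0104), and Pnpla3 (-2.98 ± 0.32, adjusted p = 8.23e-04). Elovl3 gave -0.43 ± 0.58 with CDDO-Im (adjusted p = 0.736) and differed by -2.73 ± 0.58 (adjusted p = 0.0292) between CKO vehicle and WT CDDO-Im livers, lower in the former. Fads1, a desaturase of polyunsaturated fatty acids, was lower in that contrast by -1.35 ± 0.28 (adjusted p = 0.0279), and Agpat2, an acyltransferase of triglyceride assembly, higher by 0.62 ± 0.12 (adjusted p = 0.0252). Pnpla3 had a called interaction of 3.02 ± 0.46 (adjusted p = 0.0332). Its mean was 6.01 in WT vehicle livers against 2.42 (WT CDDO-Im), 3.04 (CKO vehicle) and 2.47 (CKO CDDO-Im). Only the WT vehicle livers read above 5. From a CKO vehicle mean of 3.04, a fall as large as that in WT livers would pass below the floor. The interaction therefore cannot separate a smaller response in CKO livers from that floor. The size of the Pnpla3 fall with Keap1 deletion depends on the floor too.

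Of 19 tested upstream regulators, 0 were called with CDDO-Im in WT livers, and their median was 0.08. The largest estimate was that of Nr0b2, the corepressor SHP, at -1.24 ± 0.62 (limma adjusted p = 0.307). With Keap1 deletion 2 fell and 1 rose. Insig1, which holds SREBPs in the endoplasmic reticulum and is itself an SREBP target, fell by -1.34 ± 0.32 (adjusted p = 0.0336), the insulin-signalling kinase Akt2 fell by -0.37 ± 0.06 (adjusted p = 0.00873), and Mbtps2, the protease that releases SREBPs, rose by 0.60 ± 0.10 (adjusted p = 0.00559). Against WT CDDO-Im livers, CKO vehicle livers were lower for Akt2 (-0.32 ± 0.06, adjusted p = 0.0252) and for Rxra, the partner of LXR (-0.34 ± 0.06, adjusted p = 0.0183).

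The 5 carbohydrate response genes outside lipogenesis had a median of -0.92 with CDDO-Im in WT livers and -0.44 with Keap1 deletion, with 0 called in either. The largest estimate with CDDO-Im was that of Klf10, a zinc finger repressor (-3.09 ± 0.97, limma adjusted p = 0.110), and with Keap1 deletion that of Fgf21, a hepatic hormone (1.66 ± 0.75, adjusted p = 0.223). The 9 tested cholesterol genes, most of them SREBP-2 targets, were all below 0 in both comparisons, with medians of -0.68 and -0.96. Both comparisons share the WT vehicle livers, and all of these genes were highest in WT vehicle replicate 1. In WT vehicle replicates 1, 2 and 3, Sqle read 11.72, 9.38 and 8.61 and Fdps 12.21, 10.71 and 10.52. Stard4 stood out less, at 11.37, 11.19 and 10.45. The medians of these genes without that liver were not computed. With CDDO-Im 0 were called, and the largest estimate was Fdps (-1.09 ± 0.47, adjusted p = 0.232). With Keap1 deletion Stard4, a sterol carrier, fell by -1.60 ± 0.28 (adjusted p = 0.00873).

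Lipogenesis falls and gluconeogenic genes rise when an animal fasts, so 7 tested fasting genes were read beside the members. None was called in any comparison (0), and their medians were 0.32 with CDDO-Im in WT, 0.31 with CDDO-Im in CKO and -0.33 with Keap1 deletion. Igfbp1, a liver gene repressed by insulin, read 10.37, 7.01 and 8.11 in WT vehicle and 9.27, 7.32 and 10.14 in CKO vehicle livers. With CDDO-Im it read 10.76, 10.96 and 11.33 in WT and 11.02, 11.79 and 11.96 in CKO livers. All 6 treated livers were above all 6 vehicle livers, and the vehicle livers differed widely among themselves. The changes with CDDO-Im were 2.52 ± 0.83 in WT (limma adjusted p = 0.128) and 2.68 ± 0.83 in CKO (adjusted p = 0.425). Of 9 tested clock genes 1 was called, Per2, which fell with CDDO-Im in WT livers (-1.23 ± 0.29, adjusted p = 0.0435). Per2 gave -0.90 ± 0.29 with CDDO-Im in CKO (adjusted p = 0.427) and -0.17 ± 0.29 with Keap1 deletion (adjusted p = 0.775). The part of fasting or of clock phase in the lipogenesis values was not tested.

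**Figure D4:**
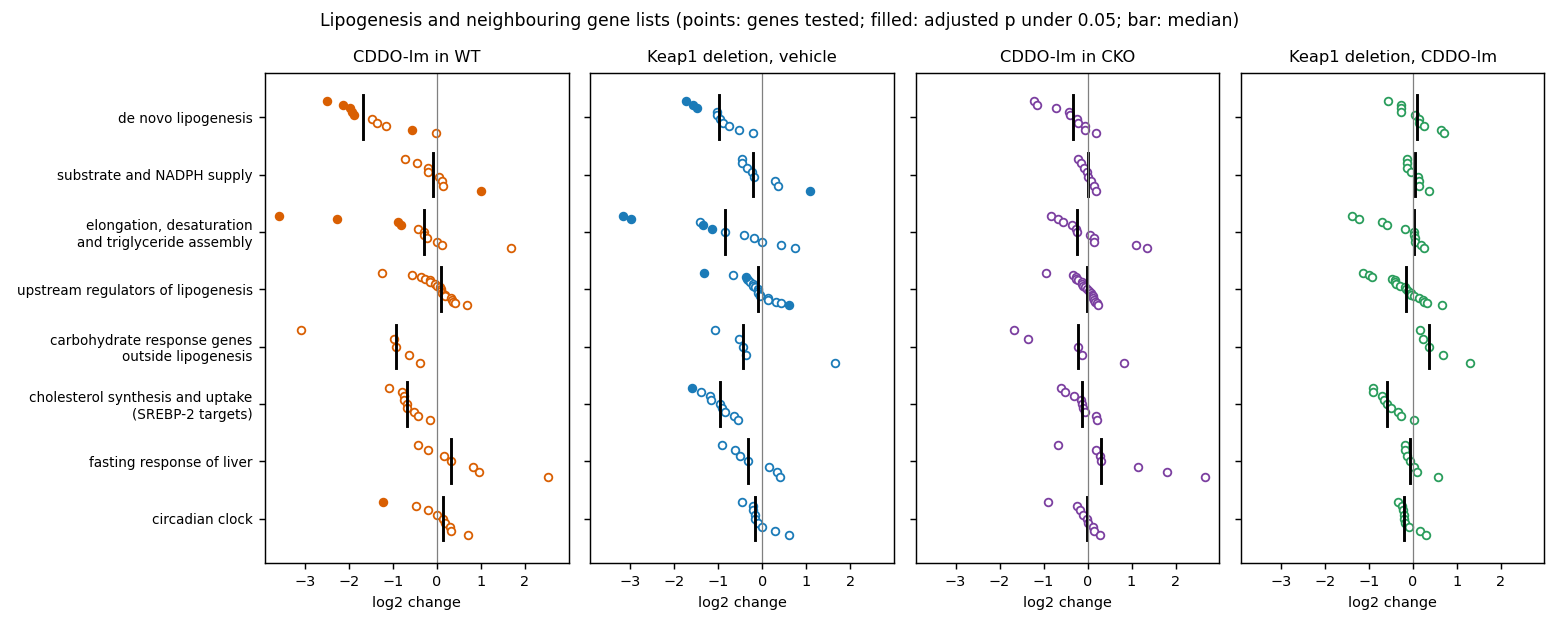
Log2 changes of the 10 lipogenesis genes and of the tested genes of 7 related lists in 4 comparisons. Each point is a gene, filled where its adjusted p was under 0.05, and the bar is the list's median. The lipogenesis median is -1.68 with CDDO-Im in WT, -0.99 with Keap1 deletion under vehicle, -0.32 with CDDO-Im in CKO and 0.09 with Keap1 deletion under CDDO-Im.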

How the data were processed

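The deposited table holds log2 signals of 12 arrays. The submitters' processing notes name GCRMA 2.12.1 and R 2.7.0. GCRMA is a method that corrects background by probe sequence, normalizes arrays together and summarises each probe set, and the settings the authors used are not stated in these sources. No further scaling was applied, and a linear fold is printed where each of its group means reached 5.

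Probe sets were named through the platform annotation (34945 with 1 gene). Using limma 3.58.1 (R 4.3.3), 4 group means were estimated from the 12 arrays together, with 8 residual and 2.32 prior degrees of freedom. The test was checked on simulated data. P-values are two-sided and were adjusted by Benjamini-Hochberg over 8338 genes. The number of arrays limits the precision. The members, the lists and their genes were chosen with earlier results of these data known. All members were named. Other genes were named from, at most, the 2 largest called rises and falls of each list and comparison or, where none was called, its largest change, and not all of these are printed. Me1, named beyond this, and the values by liver of Pgd and Igfbp1 were chosen after they were seen.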

Additional observations from a re-analysis of the deposited data

How the results depend on the processing

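Results were recomputed without each array and under 9 other settings, or 8 for the interaction. Acacb had 7, and 6 for its interaction, since it had no value with the stricter filter or the mean of the probe sets. With CDDO-Im in WT livers 6 members fell. That count was 3 with no filter and 3 with only the groups compared in the fit, and 4 to 7 without 1 array. With Keap1 deletion under vehicle 3 fell, against 1 with no filter, 1 with only the groups compared and 2 to 3 without 1 array. In the direct comparison 1 was higher, against 0 with no filter, 0 with only the groups compared and 0 to 2 without 1 array. With CDDO-Im in CKO livers, with Keap1 deletion under CDDO-Im and for the interaction, 0 members were called under every setting and without each array.

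The replicate numbers showed no clear pairing of the mice (r of deviations -0.17 to 0.15 over 12 pairs of the same number, 3 above 0.1). Pairs of other numbers ran from -0.25 to 0.25. With so few arrays in a group this check cannot exclude a pairing. With the number as a replicate block, 4 members fell with CDDO-Im in WT livers, where Srebf1 (limma adjusted p = 0.0751) and Mlxipl (0.139) were no longer called. Under the block, 0 members fell with Keap1 deletion under vehicle, and 0 were higher in the direct comparison. The block also left 114 genes called with CDDO-Im in WT livers, 2 in CKO livers, 55 with Keap1 deletion under vehicle, 42 under CDDO-Im, 150 directly and 3 for the interaction.

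Of all genes, 304 were called with CDDO-Im in WT livers (526 with every probe set tested, 124 with no filter, 85 with only the groups compared, 100 to 318 without 1 array). In CKO livers it was 0 (1 with no filter, 0 to 1 without 1 array). With Keap1 deletion under vehicle 543 were called (828, 232, 223 and 275 to 538 in that order), under CDDO-Im 128 (195, 29, 56 and 32 to 138), directly 358 (119 with no filter, 112 with only the groups compared, 108 to 379 without 1 array) and for the interaction 23 (42 with every probe set tested, 7 with no filter, 2 to 30 without 1 array). The cause of these shifts was not tested beyond the numbers of genes and arrays that the settings change.

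Signs turned only for estimates that were not called. The largest of them was that of Thrsp in the direct comparison, at 0.45 ± 0.55 (SE) with all arrays. Scd1 with CDDO-Im in WT livers was 0.0099 with median centring and 0.057 with the replicate block, and -0.23 to 0.11 without 1 array. Its interaction was 0.18 with the mean of its probe sets and -0.24 to 0.16 without 1 array, and its change with CDDO-Im in CKO livers -0.27 to 0.086. Thrsp with CDDO-Im in CKO livers was -0.39 with the replicate block and -0.17 to 0.48 without 1 array. In that comparison Srebf1 ran from -0.58 to 0.067 and Acacb from -0.28 to 0.093. With Keap1 deletion under CDDO-Im, Fasn ran from -0.47 to 0.058, Acaca from -0.13 to 0.30, Acacb from -0.19 to 0.29 and Mid1ip1 from -0.15 to 0.56. In the direct comparison Acly ran from -0.20 to 0.41, Acacb from -0.13 to 0.41 and Thrsp from -0.18 to 1.06.

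Groups of 3 livers limit every statement. The calls of Fasn, Pklr, Acly and Mid1ip1 with CDDO-Im in WT livers held without each array. Acly missed the threshold with no filter (limma adjusted p = 0.0551) and Mid1ip1 with only the groups compared (0.0805). Those of Pklr and Acly with Keap1 deletion held without each array and were lost with the replicate block (0.146 and 0.163), as was that of Fasn (0.280), and Acly also with no filter (0.0504) and with only the groups compared (0.0568).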

Other observations

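The related lists were also read in the comparisons where no lipogenesis gene was called. With CDDO-Im in CKO livers, 0 genes of any list were called by limma, as was true of all genes (790 had an unadjusted p under 0.05). The largest estimate among the upstream regulators was that of Irs1, an insulin receptor substrate, at -0.94 ± 0.26 (log2 change ± SE, adjusted p = 0.392). Among the genes of elongation, desaturation and triglyceride assembly it was that of Elovl3, at 1.35 ± 0.58 (adjusted p = 0.515). Between the genotypes under CDDO-Im, the largest estimate among the regulators was that of Ppargc1b, a coactivator of SREBP-1, at -1.13 ± 0.34 (adjusted p = 0.137), and among the cholesterol genes that of Fdps, at -0.91 ± 0.47 (adjusted p = 0.354). The cholesterol genes had a median of -0.58 there and were below 0 for 8 of 9 genes, while the lipogenesis genes had a median of 0.09.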
